A study of Mus musculus with 6 samples.

Results

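The genes described here take fatty acids into liver cells and carry them inside. They are 10 of the 46095 gene symbols in the deposited table, chosen by name: Cd36, Lpl, Vldlr, Fabp1, Fabp2, Fabp4, Fabp5, Slc27a2, Slc27a4 and Slc27a5. All 10 were found. Expression was measured by RNA-seq in C57BL/6 mice fed a high-fat diet (HFD) for 26 weeks, in 3 wild-type libraries and 3 libraries titled ARRB1 knockout (HFD-ARRB1-KO). Both groups had the diet, so the comparison is of genotype on that diet, and no library from another diet was analysed here. ARRB1 encodes beta-arrestin 1, which binds activated G protein-coupled receptors and scaffolds their signalling. The study concerns its part in fatty liver disease. How the ARRB1 allele was made, and the age and sex of the mice, are not given in the sources used here. The labels name liver as the tissue and hepatocyte as the cell type. They do not say that replicates are separate animals, and a p-value here reflects how far these libraries vary, which may be technical.

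Fatty acids reach the liver as free acids from fat tissue and as triglyceride in lipoproteins. CD36 is a surface receptor that helps long-chain fatty acids enter cells, and the SLC27A (FATP) proteins take them up and join them to coenzyme A. Lipoprotein lipase, encoded by Lpl, splits triglyceride in lipoproteins, and the VLDL receptor, encoded by Vldlr, binds triglyceride-rich lipoproteins. Inside the cell, the small FABP proteins hold fatty acids in solution and hand them to other compartments. Adult hepatocytes are known for high FABP1, SLC27A2 and SLC27A5, whereas CD36 and the VLDL receptor are normally low there and are known to rise in fatty liver.

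Arrb1, the targeted gene, measured 3.86, 22.7 and 16.9 FPKM in wild-type replicates 1 to 3 against 0.918, 1.05 and 1.16 FPKM in the knockout replicates. FPKM are fragments scaled to gene length and library size. Wild-type replicate 1 was thus well below the other wild-type libraries, though above the knockout ones. In the genotype field, knockout replicates 2 and 3 carry ARRB2 and ARRB3 in place of the ARRB1 of their titles, so results are also given without both. The fragments that could be recovered from the FPKM steps numbered 25532813 to 29973716 in wild type against 12411220, 31810109 and 26459415 in the knockout replicates, knockout replicate 1 being the shallowest. Of the 12 hepatocyte markers listed, 12 passed the filter, with albumin (Alb) at 27740 to 35463 FPKM. Limma called 2 of these markers, Tat and Cps1, both lower, and voom on recovered fragments called 3 of 11 lower. Below every wild-type library were 6 of the 12, against 7.81% of all tested genes, and 4 were lower at an unadjusted p under 0.05.

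Of the 10 genes, 9 passed the filter of a mean of 1 FPKM over the libraries and were tested with limma on log2(FPKM + 1). Cd36, Fabp2 and Slc27a4 were higher in the knockout libraries at an adjusted p under 0.05. None of the 9 was lower by limma or by limma's voom, and 2 (Fabp5 and Slc27a5) were lower at an unadjusted p under 0.05. Among all 10633 genes tested, 5.30% were called higher and 1.60% lower. Of these 3, Cd36 changed most, by 5.05-fold as a ratio of mean FPKM, against 1.73-fold for Fabp2 and 1.41-fold for Slc27a4. The other 6 tested genes and Vldlr, which did not pass the filter, are given below by their values. The median log2 difference over the 9 tested genes was 0.39, and over all genes tested it was 0.07. The knockout libraries lay above all wild-type libraries, without overlap, for 5 of the 9 tested genes and below them for 1 of the 9. Over all tested genes these patterns were found in 23.4% and 7.81%. Without knockout replicate 1, or without knockout replicate 2, Cd36 was the 1 gene still called. Without both knockout libraries labelled as other arrestins, 0 of the 9 genes were called by limma, while 5 were higher and 1 (Fabp5) was lower at an unadjusted p under 0.05.

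**Figure D1:**
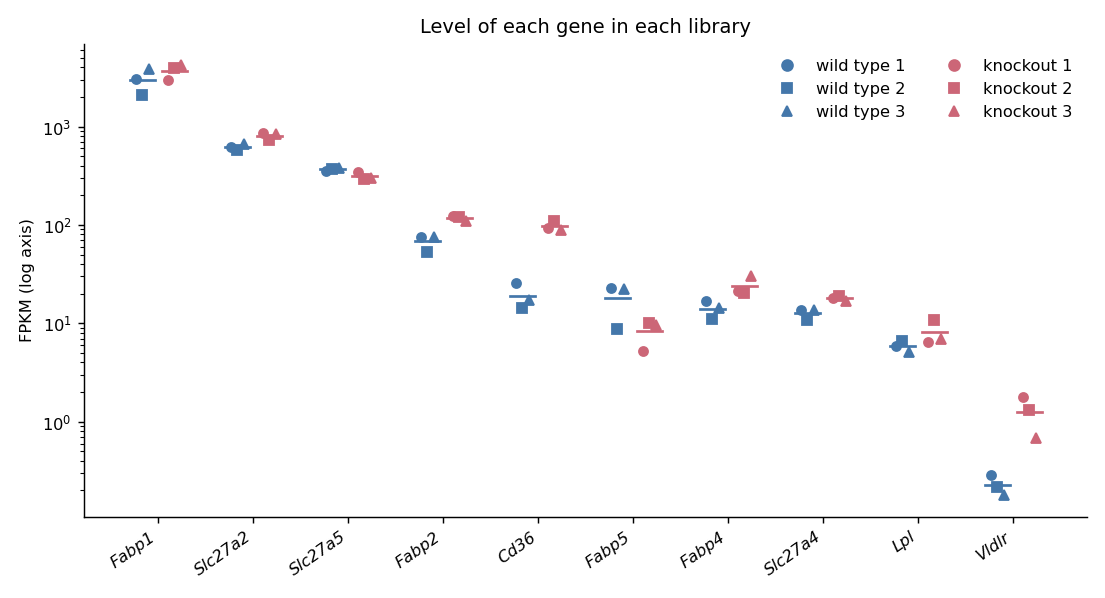
FPKM of each gene in each library on a log axis, with genes ordered by their wild-type mean. Points are libraries and horizontal lines are group means. Cd36 stands at 14.5 to 25.6 FPKM in wild type against at 89.3 to 108 FPKM in knockout, whereas the Fabp1, Lpl and Fabp5 points of the groups overlap.

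The levels spanned a wide range. Fabp1 was the highest of the 10 genes in both groups, and ranked between 8 and 27 among all genes of a library by FPKM. In wild type the order by mean FPKM was Fabp1, Slc27a2, Slc27a5, Fabp2, Cd36, Fabp5, Fabp4, Slc27a4, Lpl and Vldlr. The wild-type ranges of Cd36, Fabp5, Fabp4 and Slc27a4 overlapped from each to the next, so their order there is not beyond the spread. In knockout Cd36 overlapped only with Fabp2 above it, and Fabp5 had come to lie below Slc27a4 and next to Lpl, with which it overlapped. By rank, Cd36 stood at 1950, 3087 and 2766 across wild-type replicates 1 to 3 but at 628, 571 and 680 in the knockout replicates. The other neighbours in the order did not overlap.

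Promoter sequence, from the RefSeq table for GRCm38.p6, was at hand for 6 of the 10 genes, and 3 windows are shown because of what they hold beside the expression results. PPAR nuclear receptors, which respond to fatty acids, bind with RXR to a direct repeat called DR1. The 250 bases before each start were searched on both strands for AGGTCANAGGTCA with up to 2 mismatches (N is any base), and for its half-site AGGTCA, which overlaps it. Capitals mark the DR1-like match, and each run reads 5′ to 3′ on the gene's strand. The Cd36 window is chr5:17835897-17836146 on the minus strand. It lies inside the annotated span of the gene (17781690 to 17888801), before a RefSeq start that is not the outermost one. The Fabp1 window searched, chr6:71199629-71199878 on the plus strand, reaches into an annotated exon. The run shown is its first 198 bases, up to 71199826, which stop before that exon. The Fabp2 window is chr3:122894822-122895071 on the plus strand.
Cd36: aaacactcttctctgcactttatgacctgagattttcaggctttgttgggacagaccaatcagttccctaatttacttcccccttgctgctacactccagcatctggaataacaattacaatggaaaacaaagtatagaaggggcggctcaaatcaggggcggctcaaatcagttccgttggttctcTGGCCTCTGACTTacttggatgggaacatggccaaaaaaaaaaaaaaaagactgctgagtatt
Fabp1: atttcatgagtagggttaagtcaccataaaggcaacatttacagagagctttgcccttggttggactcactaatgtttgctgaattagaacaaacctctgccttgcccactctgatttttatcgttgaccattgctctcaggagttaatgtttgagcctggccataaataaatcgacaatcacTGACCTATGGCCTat
Fabp2: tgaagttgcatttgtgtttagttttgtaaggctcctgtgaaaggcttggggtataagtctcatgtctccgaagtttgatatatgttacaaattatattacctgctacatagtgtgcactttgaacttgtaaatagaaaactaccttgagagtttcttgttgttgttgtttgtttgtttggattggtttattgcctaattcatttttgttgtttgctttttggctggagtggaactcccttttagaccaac
The Cd36 match reads AAGTCAGAGGCCA on the opposite strand, with 2 mismatches, 63 to 51 bases before the start. The Fabp1 match reads AGGCCATAGGTCA on the opposite strand, with 1 mismatch, 67 to 55 bases before the RefSeq start. That start follows base 71199878, so the run shown ends 52 bases short of it. The windows of Fabp2, Slc27a2, Slc27a4 and Vldlr had no such match. The Slc27a2 window (126552774 to 126553023) and a Vldlr window (27216770 to 27217019) begin within an annotated exon, so they are not sequence upstream of the whole gene. Of 32536 distinct windows of that length over all genes, 3.25% held one, and 14.0% held a half-site, as did those of Cd36, Fabp1 and Slc27a2. The match thus occurs in a gene that was called, Cd36, and in one that was not, Fabp1, and is missing from the called genes Fabp2 and Slc27a4. A match is a description of letters and not a measured binding site.

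Cd36 (chromosome 5, 17781690 to 17888801, minus strand, GRCm38) measured 25.6, 14.5 and 17.3 FPKM in wild-type replicates 1 to 3 against 92.2, 108 and 89.3 FPKM in the knockout replicates. Each knockout library was more than 3 times any wild-type library, and these values rested on 1439 to 13557 fragments. The mean rose from 19.1 ± 5.81 to 96.6 ± 10.3 FPKM (SD, n = 3 each), a log2 difference of 2.31 ± 0.192 (SE; limma, adjusted p = 0.00176). It was called with each library left out, with log2 differences of 2.14 to 2.53. Without both knockout libraries labelled as other arrestins, the 1 remaining knockout library, assumed to vary like the wild type, gave 2.25, and the call was lost (limma, adjusted p = 0.0595). No sequence of 50 bases in its transcripts was shared with another annotated gene.

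**Figure D2:**
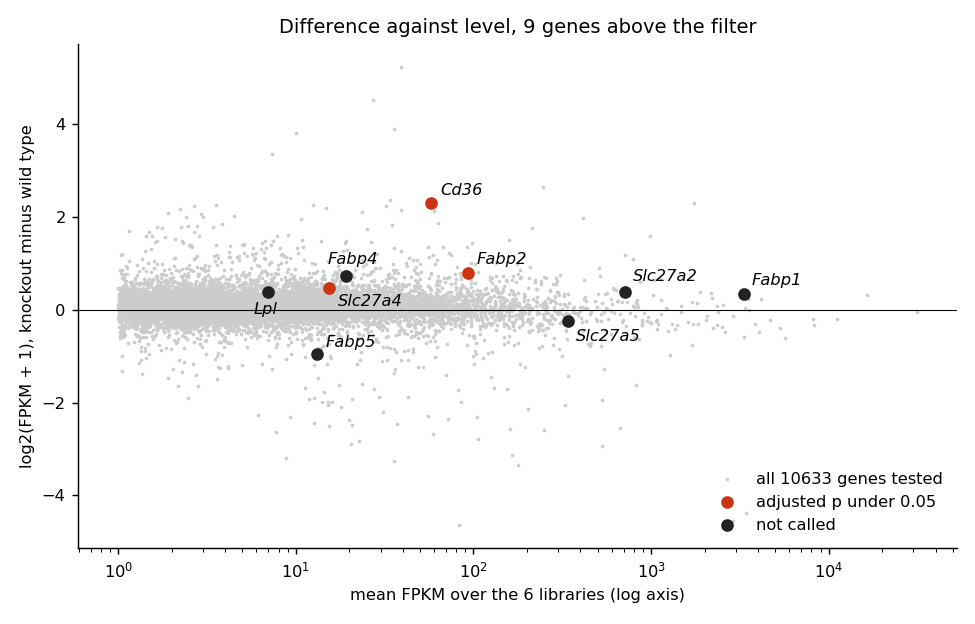
Difference in log2(FPKM + 1), knockout minus wild type, against mean FPKM on a log axis, with all 10633 tested genes in grey. Cd36 lies at 2.31, apart from the other 8 tested genes of the set, which lie between -0.96 for Fabp5 and 0.80 for Fabp2.

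Platelets and macrophages are among the cells that also carry CD36. The platelet markers Pf4, Ppbp, Gp9 and Gp1ba were at 0 in all 6 libraries, and 0 of the 6 platelet markers passed the filter. Of 12 macrophage and Kupffer cell markers, 2 were higher (Gpnmb and Mmp12) and 1 was lower (Vsig4), against 5.30% and 1.60% of all tested genes. At an unadjusted p under 0.05 by limma, 5 were higher and 2 lower. The 12 markers summed to 257 to 275 FPKM in wild type against 295 to 429 FPKM in knockout. Above every wild-type library in all knockout libraries were 6 of the 12, against 23.4% of all tested genes. Below were 2 of the 12, against 7.81%. The general macrophage gene Adgre1 stood at 10.3, 9.77 and 8.92 FPKM in wild type against 11.4, 15.2 and 12.3 FPKM in knockout (limma, adjusted p = 0.0947). The lysosomal gene Cd68 stood at 9.94, 10.7 and 9.02 FPKM against 11.9, 18.5 and 13.9 FPKM (limma, adjusted p = 0.0861). The lysozyme gene Lyz2 stood at 62.5, 56.7 and 66.9 FPKM against 87.8, 183 and 88.5 FPKM (limma, adjusted p = 0.0975). All 3 were highest in knockout replicate 2, and none was called. Clec4f, a Kupffer cell marker, overlapped between groups, at 55.2, 57.3 and 55.8 FPKM in wild type against 56.6, 44.3 and 46.6 FPKM in knockout. The part of macrophages, or of any other cell type, in the Cd36 difference was not tested. Endothelial, adipocyte and striated muscle markers are given below.

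Lpl (chromosome 8, 68880491 to 68907448) measured 5.88, 6.55 and 5.06 FPKM in wild type against 6.46, 10.8 and 6.99 FPKM in knockout. The groups overlapped, and knockout replicate 2 stood above the rest. The log2 difference was 0.39 (95% interval -0.03 to 0.80; limma, adjusted p = 0.225), and 0.18 without knockout replicate 2. That library was also the highest for Gpnmb (9.66 FPKM, against 2.42 and 3.40 FPKM in the other knockout libraries) and for Trem2 (6.80 FPKM, against 1.07 and 1.94 FPKM), both genes of lipid-laden macrophages. The part of these cells in the Lpl value was not tested. The ratio of Cd36 to Lpl within a library, which no scaling of whole libraries can alter, was 4.36, 2.21 and 3.42 in wild type and 14.3, 10.04 and 12.8 in knockout.

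Vldlr (chromosome 19, 27216484 to 27254231) had the lowest level of the 10 genes, at 0.285, 0.216 and 0.179 FPKM in wild type against 1.77, 1.30 and 0.685 FPKM in knockout. The groups did not overlap, and the ratio of the means was 5.54. Its mean over all libraries missed the filter, but the values rested on 45 to 79 fragments in wild type and 166 to 380 in knockout. With no filter, the log2(FPKM + 1) difference was 0.85 ± 0.186 (SE; limma, adjusted p = 0.115), where 0.392% of 22476 genes were called higher. On the TPM scale it was 1.30 ± 0.260 (SE; limma, adjusted p = 0.0269), where 7.49% of 12228 genes were called higher. On recovered fragments, with genes of at least 10 fragments on average, limma's voom gave 2.28 ± 0.439 (SE; adjusted p = 0.0181), where 6.01% of 14012 genes were called higher. The voom fit was added after the data were seen. In it Vldlr was no longer called when knockout replicate 2 was left out (adjusted p = 0.0676), nor without any of wild-type replicates 1 (0.0519), 2 (0.0767) and 3 (0.0541), with log2 differences of 2.10 to 2.68 over the libraries left out. The knockout libraries also differed among themselves, with knockout replicate 3 the lowest.

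Among the binding proteins, Fabp1, the liver form, measured 3014, 2103 and 3805 FPKM in wild type against 2954, 3928 and 4171 FPKM in knockout. The groups overlapped and the log2 difference was 0.33 (95% interval -0.21 to 0.88; limma, adjusted p = 0.415). Wild-type replicate 2 was the lowest, and without it the difference was 0.11. Fabp1 gave 95.1% to 97.1% of the summed FPKM of the 4 FABP genes in every library. The gene lies on chromosome 6 from 71199827 to 71205023.

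Fabp2 (chromosome 3, 122895072 to 122899506, plus strand) is named for its role in intestinal enterocytes. It measured 75.0, 53.4 and 75.7 FPKM in wild type against 125, 120.3 and 108 FPKM in knockout, with no overlap. The mean rose from 68.1 ± 12.7 to 118 ± 8.38 FPKM (SD, n = 3 each), a log2 difference of 0.80 ± 0.145 (SE; limma, adjusted p = 0.0224). The call was lost without knockout replicate 1 (adjusted p = 0.0537) or 2 (0.0907). The enterocyte genes Lct, Alpi and Fabp6 were at 0 in all 6 libraries, Sis was at most 0.00575 FPKM, and of the 9 enterocyte markers only Mttp, which hepatocytes also express, passed the filter. The antisense gene 4933405D12Rik overlaps Fabp2 and was at 0 to 0.172 FPKM. The ratio of Fabp2 to Fabp1 within a library was 0.0249, 0.0254 and 0.0199 in wild type and 0.0422, 0.0306 and 0.0260 in knockout, so Fabp2 remained far below Fabp1.

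Fabp4 and Fabp5 lie near each other on chromosome 3 (10204088 to 10208576, minus strand, and 10012548 to 10016607, plus strand). Their values went in opposite directions, though neither was called. Fabp4, a binding protein of adipocytes, macrophages and capillary endothelium, measured 16.7, 11.1 and 14.3 FPKM in wild type against 21.3, 20.3 and 30.4 FPKM in knockout, without overlap. Its log2 difference was 0.73 (95% interval 0.29 to 1.16; limma, adjusted p = 0.0607). Fabp5, the epidermal form, measured 22.6, 8.84 and 22.5 FPKM in wild type against 5.28, 9.997 and 9.68 FPKM in knockout. Its groups overlapped through wild-type replicate 2, and its log2 difference was -0.96 (95% interval -1.81 to -0.12; limma, adjusted p = 0.152). Without wild-type replicate 2 the Fabp5 difference was -1.38, still not called (adjusted p = 0.0539). The intervals of both genes exclude 0, but they are not adjusted for the number of genes tested. The ratio of Fabp4 to Fabp5 was 0.739, 1.26 and 0.638 in wild type and 4.03, 2.03 and 3.15 in knockout. Of the 50-base sequences of Fabp5 transcripts, 5.48% occur in 5 other genes. Of these, Fabp5l2, Gm14328 and Gm6100 were at 0 in all 6 libraries, and levels of Gm13998 and Gm6166 are not reported here.

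In bulk RNA a change in the number of cells of a type and a change in the RNA of each cell cannot be told apart. Knockout replicate 3, the library with the most Fabp4, also had the most of the adipocyte genes Adipoq (0.723 FPKM), Plin1 (0.632 FPKM), Lep (0.240 FPKM) and Cfd (34.4 FPKM). Retn (0.0301 FPKM) and Lipe (6.40 FPKM) were highest there too. The other listed adipocyte markers were not: Car3 was lowest in that library, at 773 FPKM. Adrb3, at 1.26 FPKM, was below wild-type replicates 2 and 3 (1.47 and 1.57 FPKM). In knockout replicate 1 Adipoq, Plin1 and Lep were at 0, and Fabp4 there, at 21.3 FPKM, was above each wild-type library. Of the 8 adipocyte markers 4 passed the filter and 0 were called by limma or voom (2 at an unadjusted p under 0.05), and their sum, most of it Car3, was 1274 to 1661 FPKM in wild type against 817 to 1361 FPKM in knockout. Of 12 endothelial markers 11 passed the filter and 3 were higher (Lyve1, Eng and Pecam1), against 5.30% of all tested genes. Above every wild-type library were 7 of the 11, against 23.4% of all tested genes, and 0 were below. At an unadjusted p under 0.05 by limma, 6 were higher. The 12 endothelial markers summed to 125 to 143 FPKM in wild type against 148 to 169 FPKM in knockout. The part of either cell type in the Fabp4 values was not tested.

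**Figure D3:**
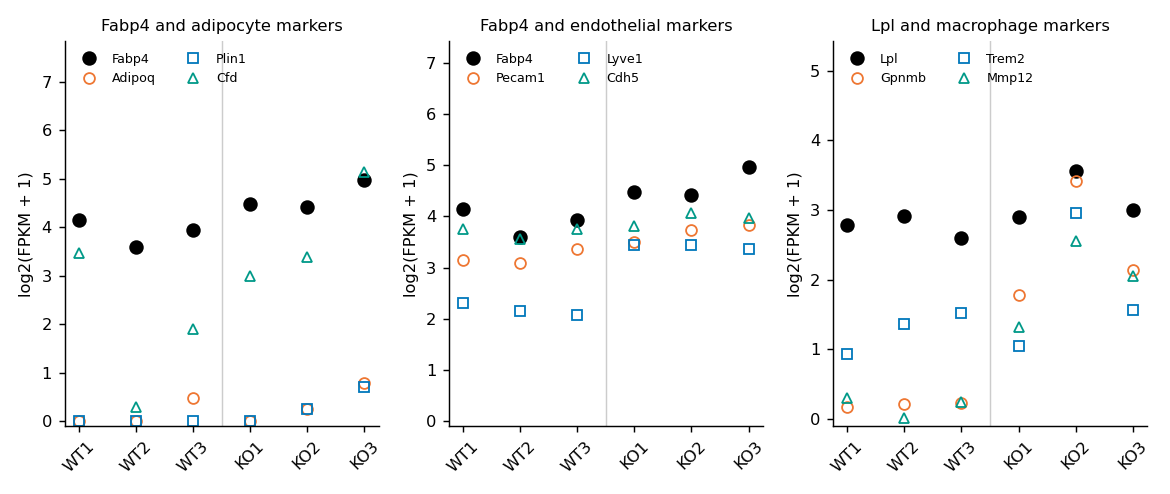
log2(FPKM + 1) of Fabp4 or Lpl (black) and of 3 marker genes (open symbols) in each library, wild type (WT) on the left of each panel and knockout (KO) on the right. Fabp4 and Cfd are highest in knockout replicate 3, Adipoq and Plin1 are at 0 in knockout replicate 1, and Lpl and Gpnmb are highest in knockout replicate 2.

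Among the transport proteins, Slc27a2 (FATP2, chromosome 2, 126552407 to 126588243) measured 622, 576 and 671 FPKM in wild type against 856, 738 and 836 FPKM in knockout. The groups did not overlap, but the difference of 0.38 on the log2 scale (95% interval 0.12 to 0.63) was not called (limma, adjusted p = 0.0816). Of the 50-base sequences of Slc27a2 transcripts, 9.8% are shared with Gm26697, an overlapping gene on the opposite strand, which was at 0 to 0.224 FPKM. Slc27a5 (FATP5, chromosome 7, 12988346 to 12998192), which also joins bile acids to coenzyme A, measured 357, 371 and 380.3 FPKM in wild type against 347, 295 and 300.2 FPKM in knockout. All 3 knockout libraries were lower, with a log2 difference of -0.24 (95% interval -0.47 to -0.01; limma, adjusted p = 0.187). Arrb1 is also on chromosome 7, 86547120 bases from Slc27a5 by their starts.

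Slc27a4 (FATP4, chromosome 2, 29802634 to 29817522) is a more widely expressed transporter. It measured 13.6, 10.9 and 13.7 FPKM in wild type against 18.2, 18.9 and 16.8 FPKM in knockout, with no overlap. The mean rose from 12.7 ± 1.59 to 18.0 ± 1.04 FPKM (SD, n = 3 each), a log2 difference of 0.47 ± 0.108 (SE; limma, adjusted p = 0.0443). This call was close to the threshold. It was lost with any 1 library left out (adjusted p = 0.0629 to 0.146, log2 differences of 0.37 to 0.52), under quantile normalization (0.0677) and under median-of-ratios scaling (0.0661).

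The ratio of Slc27a2 to Slc27a5 within a library was 1.74, 1.55 and 1.76 in wild type and 2.47, 2.50 and 2.79 in knockout. Its mean was 1.69 ± 0.117 in wild type and 2.58 ± 0.176 in knockout (SD, n = 3 each; exact two-sided permutation p = 0.1, the smallest this design allows). As shares of the summed FPKM of the 3 FATP genes, Slc27a2 went from 60.1% to 63.0% in wild type to 70.1% to 72.5% in knockout, Slc27a5 from 35.7% to 38.7% to 26.0% to 28.4%, and Slc27a4 from 1.14% to 1.37% to 1.46% to 1.80%. The sum itself was 958 to 1065 FPKM in wild type against 1052 to 1222 FPKM in knockout, with overlap. The ratios of Fabp4 to Fabp5, Cd36 to Lpl and Fabp2 to Fabp1 gave the same exact permutation p of 0.1, and these 4 ratios were chosen after the values were seen.

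**Figure D4:**
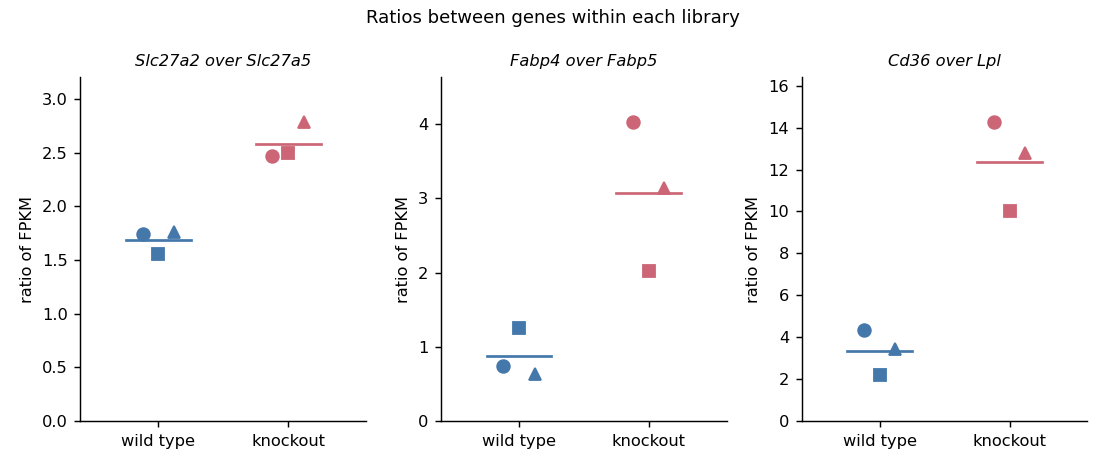
Ratio of FPKM between pairs of genes within each library, with group means as lines and each axis starting at 0. The knockout libraries lie above the wild-type libraries in all 3 panels, at 2.47 to 2.79 against 1.55 to 1.76 for Slc27a2 over Slc27a5.

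The spread between replicates differed from gene to gene. Among the wild-type libraries the coefficient of variation (SD over mean) was 3.18% for Slc27a5, 7.61% for Slc27a2, 28.6% for Fabp1, 30.4% for Cd36 and 44.1% for Fabp5. Its median over the 9 tested genes was 18.7% in wild type and 10.7% in knockout, and over all tested genes it was 10.7% and 10.5%. Wild-type replicate 2 had the lowest wild-type value for 7 of the 10 genes, Lpl, Vldlr and Slc27a5 being the others. Single genes were also compared by an exact two-sided permutation test, which gave 0.1 for the 7 genes without overlap, 0.200 for Lpl and 0.300 for Fabp1 and Fabp5.

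**Figure D5:**
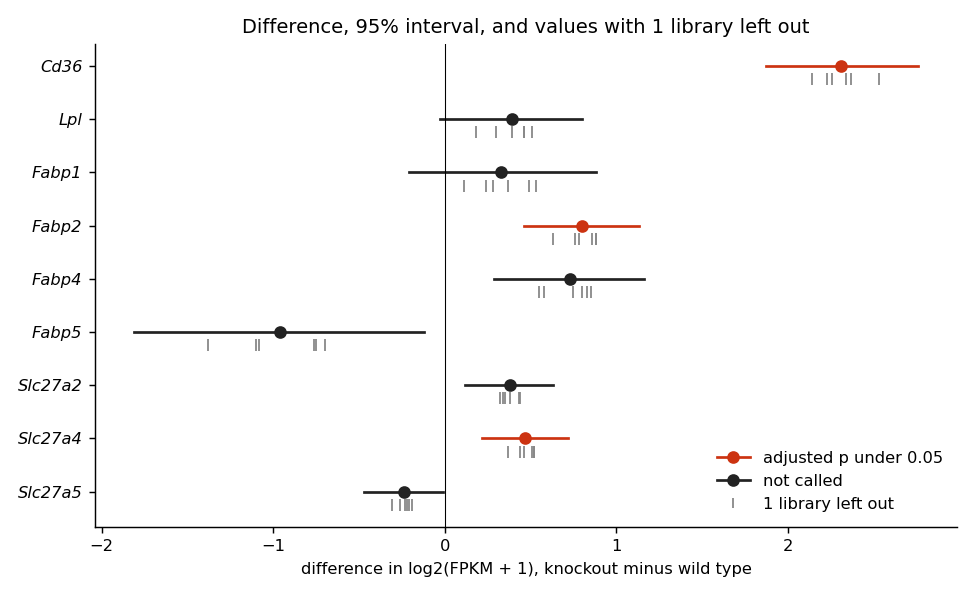
Difference in log2(FPKM + 1), knockout minus wild type, for the 9 tested genes, with unadjusted 95% intervals from limma as lines and the values with 1 library left out as ticks. The Cd36 values stay between 2.14 and 2.53, and no gene changes sign.

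Other genes of the same route were followed in 7 lists of 106 genes in all, of which 78 were tested. Of these, 4 were higher and 1 was lower, beside 5.30% and 1.60% of all genes, so the share of calls was near that of all genes. Their median log2 difference was 0.12. Voom on recovered fragments called 8 of them higher, and limma called 2 higher without knockout replicate 2 and 2 lower without wild-type replicate 3. Ppara, the nuclear receptor of fatty acid oxidation, rose from 38.8 ± 5.72 to 61.6 ± 6.94 FPKM (SD, n = 3 each; limma, adjusted p = 0.0275), 1 higher of 15 tested nuclear receptors and regulators. Ppara was no longer called when replicate 2 or 3 of either group was left out (adjusted p = 0.0587 to 0.102) and with the replicate number as a block (0.0515). Cd81, a tetraspanin reported to associate with CD36, rose from 189 ± 11.9 to 309 ± 14.5 FPKM (limma, adjusted p = 0.00801), 1 of 10 tested CD36 partners. Pcsk6, a convertase that cleaves secreted proteins, rose from 35.5 ± 2.90 to 61.6 ± 3.75 FPKM (limma, adjusted p = 0.00584), 1 of 18 tested genes of lipases and their control. Acsm3, a medium-chain acyl-CoA synthetase, rose from 31.7 ± 3.12 to 47.1 ± 5.82 FPKM (limma, adjusted p = 0.0369), 1 of 13 tested genes of fatty acid activation and acyl-CoA binding. The Acsm3 call was lost without each library other than knockout replicate 3 (adjusted p = 0.0515 to 0.131), under quantile normalization (0.0592) and under median-of-ratios scaling (0.0568), and with the block (0.0757).

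In the lists of other FABP family genes and of fatty acid entry, no tested gene was called by limma or voom. At an unadjusted p under 0.05 by limma, 4 of their tested genes were higher and none was lower. Among 8 tested genes of fatty acid entry the smallest p was that of Slc27a1 (FATP1), at 2.16, 2.41 and 2.25 FPKM in wild type against 3.89, 3.12 and 3.07 FPKM in knockout (limma, adjusted p = 0.0677). The filter was passed by 2 of the 11 other FABP family genes in the table, of which Fabp7 was at 2.34 ± 0.188 FPKM in wild type against 4.21 ± 1.52 FPKM in knockout (SD, n = 3 each; limma, adjusted p = 0.110). Fabp3, the heart form, was at 0 in the 3 wild-type libraries and at 0.449, 0.0446 and 0 FPKM in knockout.

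The genes whose 6 values were most like those of each called gene were found by the root mean square difference of log2(FPKM + 1), each gene centred on its own mean. For Cd36 these were Ifi27l2b (0.123), Mogat1 (0.161), a monoacylglycerol acyltransferase gene, and the P450 gene Cyp2c38 (0.173), where the centred values of Cd36 themselves had a root mean square of 1.182. Mogat1 measured 0.849, 0.338 and 0.363 FPKM in wild type against 5.03, 5.65 and 5.25 FPKM in knockout. Like Cd36, it was highest in knockout replicate 2 and lowest in wild-type replicate 2, as were Ifi27l2b and Cyp2c38. These genes were picked for their likeness to Cd36, so the shared order is not a separate result. For Fabp2 they were Tmem28 (0.054), BC026585 (0.056) and the carboxylesterase gene Ces2e (0.056), beside a root mean square of 0.435 for Fabp2. For Slc27a4 they were Gorasp1 (0.030), Pebp1 (0.034) and the glycolytic gene Pgam1 (0.040), beside 0.260 for Slc27a4. These are descriptions over 6 libraries, and Cyp2c38 and Ces2e belong to families of close copies.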

How the data were processed

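The authors deposited 1 table of FPKM per gene symbol and library. Bowtie 0.12.2 and HISAT2, with the builds mm8 and mm10, are named in the submitters' processing notes. Their roles, the gene annotation, strandedness and the treatment of reads with several matches are not given in the sources used here. Per the labels' protocols, RNA was taken with Trizol and libraries were made with an Illumina TruSeq kit. Groups and replicate numbers came from the sample titles.

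Genes averaging 1 FPKM or more were fitted with limma 3.58.1 in R 4.3.3 (eBayes with trend, two-sided, genotype as the only term) on log2(FPKM + 1), which understates the change of low genes. Benjamini-Hochberg adjustment ran over all 10633 genes, and calls are at an adjusted p under 0.05. With 3 libraries against 3, the exact permutation p is never under 0.1. The fit was tested on simulated data. FPKM values of a gene step by whole fragments: of 17549 genes detected in 4 or more libraries, 17547 gave whole fragments within 0.001 plus 5e-08 of the count, and 0.0% of 972 genes did with wrong steps. The wrong steps were searched over a shorter range of counts than the real ones. Genes with many fragments were thus not checked this way. A common divisor of all counts of a gene would be missed. Totals are sums over the 17547 genes.

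Positions are from GENCODE vM21 (GRCm38, which is mm10), matched by symbol. The alternatives were other pseudocounts, filters, scalings and variance models, voom, the replicate number as a block and left-out libraries. The genes and lists were chosen with earlier results of these data known. Named genes are the 10 genes, Arrb1, up to 4 called genes or else the gene with the smallest p of each related list, and the 3 most similar genes per called gene. Marker genes and others beyond this rule were named after their values were seen, and some genes under the rule are not reported here. Python 3.11.15, pandas 2.3.3, scipy 1.17.1 and matplotlib 3.10.9 were used.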

Additional observations from a re-analysis of the deposited data

How the results depend on the processing

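Of the 9 tested genes of the set, 3 were called higher as reported, 2 with the replicate block and 0 without both knockout libraries labelled as other arrestins. With no filter 1 of 10 was, and on the TPM scale 6 of 10, the total being 10 because both fits also held Vldlr. With 1 library left out the count was 1 to 2. The 6 on the TPM scale were Cd36, Vldlr, Fabp2, Fabp4 (adjusted p = 0.0425), Slc27a2 (0.0461) and Slc27a4. The direction of each of the 10 genes was the same in all fits that held it. Of the related genes, 4 were called higher as reported, 2 with no filter, 8 on the TPM scale, 8 with either voom fit, 0 without both of those knockout libraries, 3 with the replicate block and 2 to 4 with 1 library left out. The number lower, 1 as reported, was 2 under median-of-ratios scaling and with voom on genes of at least 10 fragments (a fit added after seeing the data), 0 without both knockout libraries, and 1 to 2 with 1 library left out. Over all genes, 564 were higher and 170 lower as reported, 371 and 204 under quantile normalization, 353 and 221 under median-of-ratios scaling, 916 and 165 on the TPM scale, 88 and 58 with no filter, 280 and 122 with the replicate block and 30 and 42 without both knockout libraries. With 1 library left out, 94 to 422 were higher and 54 to 119 lower, the 94 being without knockout replicate 2 and the 54 without wild-type replicate 2. The causes were not tested. Replicate numbers share only a label: deviations from the group means correlated at 0.17, -0.063 and 0.097 for the pairs numbered 1 to 3. The block also ended the call of Slc27a4 (adjusted p = 0.0847), and the calls of Cd36 and Fabp2 held under it. Fabp5 rested on 70 fragments in knockout replicate 1 and Vldlr on 45 in wild-type replicate 3, so counting error is largest there.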

Other observations

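The acyl-CoA synthetase genes Acsl3 and Acsl4, named after their values were seen, were lower in each knockout library than in any wild-type library, though neither was called. Of the 13 tested genes of their list, 4 had this pattern, against 7.81% of all tested genes. The opposite pattern was found in 2 of the 13, against 23.4%. Acsl3 measured 8.78, 13.5 and 6.81 FPKM in wild-type replicates 1 to 3 against 2.55, 5.43 and 5.07 FPKM in the knockout replicates (limma, adjusted p = 0.0778). Acsl4 measured 14.0, 16.3 and 11.3 FPKM in wild type against 5.16, 10.1 and 9.13 FPKM in knockout (limma, adjusted p = 0.0952). Acsl1, the main acyl-CoA synthetase gene of hepatocytes, stood at 243 ± 10.7 FPKM in wild type against 268 ± 33.4 FPKM in knockout (SD, n = 3 each; limma, adjusted p = 0.492).

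Mfsd2a, a transporter of lysophosphatidylcholine that carries long-chain fatty acids, measured 23.1, 20.1 and 50.5 FPKM in wild type against 46.8, 77.7 and 113 FPKM in knockout, with overlap (limma, adjusted p = 0.0848). Angptl4, an inhibitor of lipoprotein lipase, was at 0.0824 to 0.225 FPKM over the 6 libraries. Knockout replicate 1 held the striated muscle genes Mb at 15.5, Actc1 at 8.52 and Ckm at 1.78 FPKM, where the other 5 libraries had 0 for Mb and Ckm and at most 0.136 FPKM for Actc1. Lpl, which muscle expresses, was at 6.46 FPKM in that library, within the wild-type range. Fabp3 (0.449 FPKM) and Slc27a1 (3.89 FPKM) were highest in that library. Slc27a1 was also above each wild-type library in the other knockout libraries (3.12 and 3.07 FPKM). The part of muscle RNA in these values was not tested. The list of 8 striated muscle markers summed to 1.77 to 2.26 FPKM in wild type against 2.31 to 29.0 FPKM in knockout. Of the marker lists not given above, stellate cells had 2 of 10 tested genes higher (Col1a1 and Col3a1), against 5.30% of all tested genes. Above every wild-type library were 5 of these 10, against 23.4% of all tested genes, and 0 were below. At an unadjusted p under 0.05 by limma, 4 stellate genes were higher. Limma called 0 of 4 cholangiocyte and 0 of 3 striated muscle genes, of which 0 and 1 were higher at an unadjusted p under 0.05, with 0 called by voom.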
